A study of Mus musculus with 12 samples.

Results

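The cytosolic ribosomal protein genes were followed across 12 RNA-seq libraries of mouse cells on the way from blood-forming endothelium to blood progenitors. They were chosen by gene name alone: Rpl or Rps with a number and at most 1 letter of the kind a or x, Rplp0, Rplp1, Rplp2 and Rpsa. This gave 76 genes of 35976 names, 46 of the large and 30 of the small ribosomal subunit, and all 76 passed the filter on low values. The cells came from A2lox.cre embryonic stem cells, a mouse line made for the insertion of inducible transgenes. In every group they carried inducible RUNX1-EVI1, a leukaemia-associated fusion of 2 transcription factors. FLK1-positive cells from embryoid bodies were cultured towards blood and received 0.5 µg/ml doxycycline (PlusDox) or none (NoDox) for 18 hours. They were then sorted into 3 populations, labelled as hemogenic endothelial 1 (HE1), the same name with a 2 (HE2), and progenitors of blood (HP), which gave 6 groups of 2 biological replicates. The labels describe the expansion of single colonies, and the number of clones and the sort gates are not stated there. No group had doxycycline without the construct, so the fusion and the drug cannot be told apart.

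A ribosome is built from ribosomal RNAs and a large set of proteins, and growing cells make these proteins in near-equal numbers. The mRNAs of these proteins are among the most abundant of a cell, and most begin with a run of pyrimidines (C or T), the TOP motif, through which the TOR kinase pathway sets their translation. Mouse and human genomes also hold many processed pseudogenes of these genes, intron-less copies made from their mRNAs. Loss of 1 copy of some of them, such as RPS19, RPL5 or RPL11, causes Diamond-Blackfan anaemia, in which red cell precursors fail.

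Because the TOP motif is the sequence mark of the family, windows from 40 bases before to 20 bases from the annotated RefSeq start (build GRCm38, the same as mm10) are shown for 3 genes with a clear run and for Rps16 and Rpl41, on which results below turn. Capitals mark the longest run of C and T that touches the 20 bases on either side of the start. The genes and the window were chosen after the values were seen.
Rpl7a, chr2:26910767-26910826, plus strand: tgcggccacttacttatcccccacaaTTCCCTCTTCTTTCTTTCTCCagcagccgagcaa
Rpl34, chr3:130730318-130730377, minus strand: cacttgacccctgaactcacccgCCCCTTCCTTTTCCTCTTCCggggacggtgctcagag
Rps6, chr4:86857348-86857407, minus strand: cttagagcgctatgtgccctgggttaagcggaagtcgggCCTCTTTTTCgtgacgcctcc
Rps16, chr7:28350649-28350708, plus strand: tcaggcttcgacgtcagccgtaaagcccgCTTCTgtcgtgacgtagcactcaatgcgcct
Rpl41, chr10:128549149-128549208, minus strand: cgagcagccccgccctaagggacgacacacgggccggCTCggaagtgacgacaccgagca
Promoter sequences of 300 bases were at hand for 56 of the 76 genes. A run of at least 8 pyrimidines within 20 bases of the start was found in 27 of these 56 promoters (48.2%), against 20.8% of 27025 promoters of all genes and 20% of the 9683 promoters of tested genes. Such a run need not be at the start of the mRNA: those of Rpl5 and Rpl39 end before the annotated start. The share is therefore not a count of TOP motifs. The letters CCGGAAG, on either strand, were in 41.1% of the 56, against 9.08% of all and 18.4% of tested promoters. TGTGGT, on either strand, was in 8.93%, 17% and 12.7% in the same order. GATAAG was in 14.3%, 7.49% and 5.06%. These are matches of letters, not sites of binding, and each share rests on only 5 to 27 of the 56 promoters.

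The libraries differed in ways that touch these genes. Lars2 stood above 1000 FPKM (a level scaled by transcript length and by the library's mapped fragments) in 5 libraries. These were replicate 2 of PlusDox HE1, PlusDox HE2, PlusDox HP and NoDox HP, and replicate 1 of NoDox HE1. NoDox HE2 was the 1 group without such a library. Endothelial markers (6 genes) summed to 1072 to 1519 FPKM in HE1, 543.8 to 962.4 in HE2 and 103.8 to 229.3 in HP. Haematopoietic markers (8 genes) summed to 13.56 to 61.56, 173.6 to 303.8 and 383.8 to 540.9 FPKM, with Ptprc listed at 0 in 3 HE1 libraries. These orders match the labelled populations. Mesenchymal and smooth muscle markers (7 genes) ranged from 122.6 to 316.9 FPKM in HE1 and from 31.18 to 97.2 in HE2 and HP. Pluripotency markers (4 genes) summed to at most 1.718.

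Ribosomal protein mRNA made up 9.15% to 14.8% of the summed FPKM of a library. The 76 genes summed to 54541 and 59199 FPKM in the 2 NoDox HE1 libraries and to 56075 and 46682 in PlusDox HE1. In HE2 the sums were 79796 and 63418 without and 79682 and 63069 with doxycycline. In HP they were 82505 and 65854 without and 78464 and 58618 with doxycycline. The HE1 sums were the lowest, except that PlusDox HP replicate 2 lay just below NoDox HE1 replicate 2, and the ranges of HE2 and HP overlapped. Once Lars2, Mir6236 and LOC101056014 were left out, the share was 11.0% to 14.9%. The median ribosomal protein gene ranked between 63 and 79 of the 13316 tested genes in each library.

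**Figure D1:**
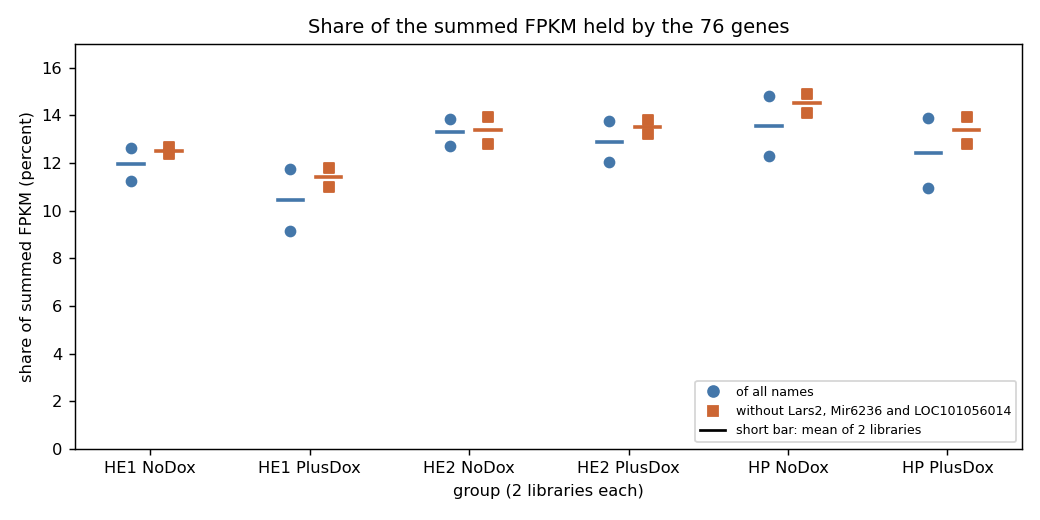
Share of the summed FPKM (percent, vertical axis) held by the 76 ribosomal protein genes in each of 6 groups; points are single libraries and short bars the mean of 2. Circles are shares of all names and squares the shares without Lars2, Mir6236 and LOC101056014; HE1 has the lowest squares, and the 2 libraries of a group differ by up to the size of the differences between groups.

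Levels of single members spanned a wide range although their proteins occur in near-equal numbers. Rpl41, which encodes the shortest ribosomal protein, was the highest (mean 1963 FPKM over 12 libraries), followed by Rpl23a (1838) and Rpl19 (1737), all of the large subunit. Rpl29 (61.4), Rps15a (94.8) and Rpl22 (126) were the lowest, and the median gene had 823 FPKM. FPKM is per transcript length, so these levels can be compared between genes, but they depend on which copies took the reads. Rpl29 read 42.6 to 79.5 FPKM, while Gm8210, a processed copy of it, read 118 to 211. Rpl34-ps1 read 279 to 478 FPKM and Rpl34 itself 149 to 270. A low level of a gene with such a copy is therefore uncertain.

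The stalk proteins Rplp0, Rplp1 and Rplp2, which recruit translation factors to the large subunit, read 576 to 992, 1158 to 2106 and 634 to 1297 FPKM. Rpsa, a small subunit protein also known as the laminin receptor, read 578 to 1125 FPKM. Rps6, the small subunit substrate of S6 kinase, read 510 to 916. Rpl5 and Rpl11, which with 5S RNA bind MDM2 when ribosome building fails, read 362 to 613 and 598 to 974. Rps19, the gene most often mutated in Diamond-Blackfan anaemia, read 535 to 1000 FPKM. Rpl10a and Rpl38, proteins linked to the translation of selected mRNAs, read 455 to 940 and 963 to 1852. Rpl22, a protein needed for some lymphocytes, read 90.8 to 166. In the 75 genes other than Rps16 the highest library was 1.44 to 2.83 times the lowest, with a median of 1.83.

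The genes moved together from library to library. In 5 groups, 74 to 76 of the 76 genes were higher in replicate 1 than in replicate 2, by a median of 0.26 (PlusDox HE1) to 0.44 (PlusDox HP) on the log2 scale. In NoDox HE1 only 5 of 76 were, and the median difference was −0.14. Around this shared shift the median absolute deviation of the members was 0.05 to 0.08, against 0.12 to 0.25 in 527 other tested genes whose median reached 100 FPKM. Much of a member's replicate difference was thus shared by the family, and the 76 genes are not independent measurements of a condition. The shift was not confined to the family. In replicates 1 and 2, the median of all tested genes was 8.64 and 9.44 FPKM in NoDox HE1. It was 9.60 and 7.85 in PlusDox HE1, 10.3 and 9.35 in PlusDox HE2, 9.94 and 8.56 in NoDox HP and 10.2 and 8.59 in PlusDox HP. In NoDox HE2 it went the other way than the members (9.93 and 10.3). The members' shift moved with the Lars2 class in part. The lower replicate was the Lars2-high one in every group that held such a library, while in NoDox HE2 neither was. The part of the class in the shift was not tested.

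**Figure D2:**
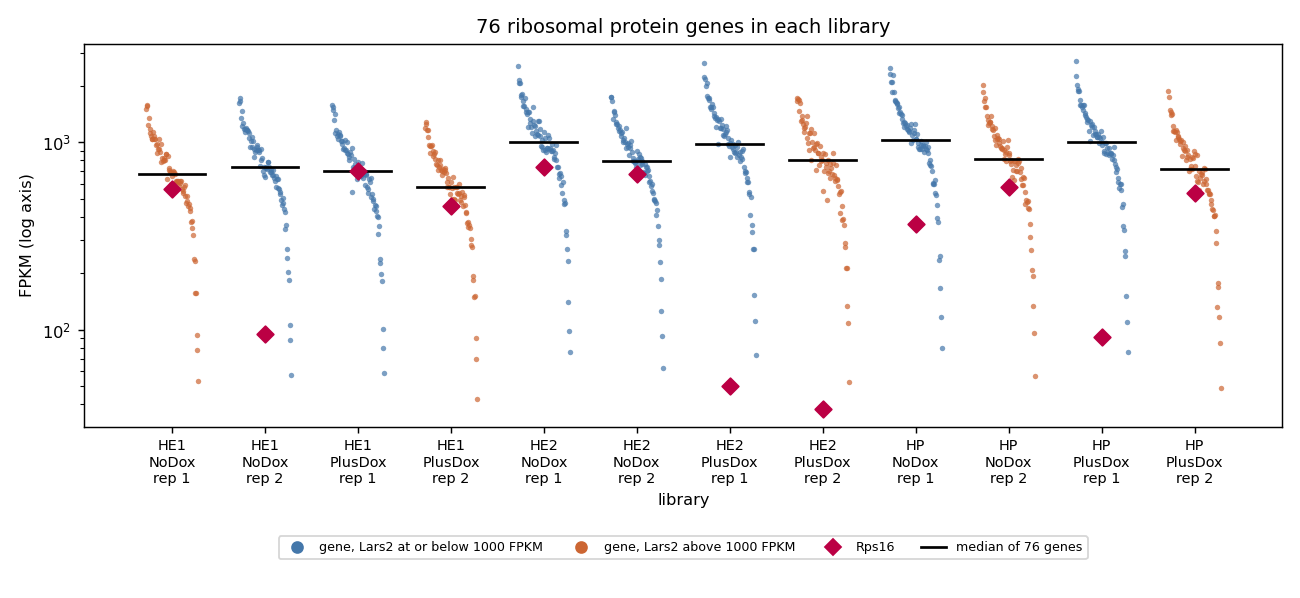
FPKM (log axis) of the 76 genes in each of 12 libraries; dots are genes ordered by mean level, coloured by whether Lars2 exceeded 1000 FPKM, black lines are medians and red diamonds are Rps16. The family shifts up or down as a block, while Rps16 lies well below the family median in 5 libraries: NoDox HE1 replicate 2, both PlusDox HE2 libraries, NoDox HP replicate 1 and PlusDox HP replicate 1.

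By the median absolute log2 difference between replicates, Rps16 (0.64), Rpl41 (0.47), Rpl29 (0.47) and Rpl36 (0.46) were widest. Rpl17 (0.05), Rpl30 (0.13), Rpl39 (0.14) and Rps24 (0.18) were narrowest. Relative to the family median of each library, Rps16 had the widest spread (SD 1.70 over 12 libraries, log2) and Rpl15 (0.28) the next widest. Rpl15 was singled out after its values were seen.

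The low libraries of Rpl15 and Rps24 were single ones. Rpl15 read 133 FPKM in PlusDox HP replicate 2 and 193 to 376 FPKM elsewhere. Rps24 read 546 FPKM in PlusDox HE1 replicate 1, where its replicate read 726. Rpl14 had a different pattern: it read 1254 and 1023 FPKM in NoDox HP and 1141 and 897 in PlusDox HP, against 529 to 960 in the 8 HE1 and HE2 libraries. The HP range overlapped the HE2 range. Rpl14 was also singled out after its values were seen.

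**Figure D3:**
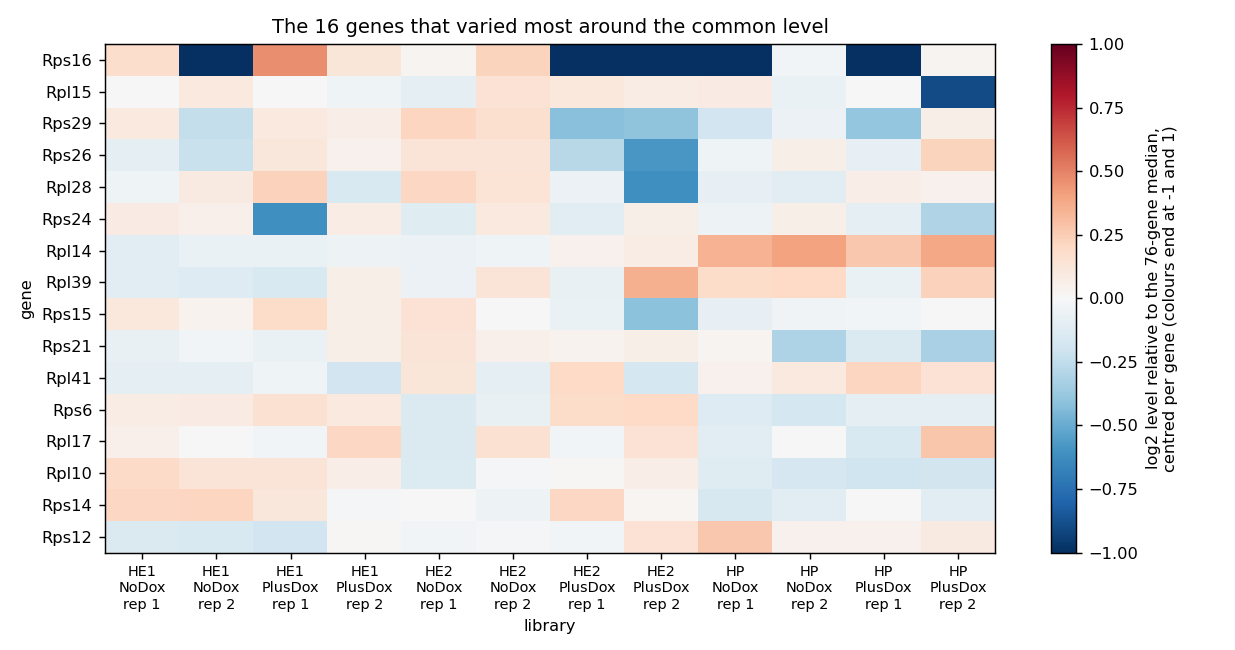
Log2 level of the 16 genes that varied most, relative to the median of the 76 genes in each library and centred per gene (colours end at −1 and 1), over 12 libraries. Rps16 is far below the family in 5 libraries, Rpl14 is higher in the 4 HP libraries, and Rps29 is low in both PlusDox HE2 libraries and about as low in PlusDox HP replicate 1.

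Rps16 (mm10 chromosome 7, 28350689 to 28352698, protein coding), a small subunit protein near the decoding site, was the 1 member that left the family. It read 560 and 95.1 FPKM in NoDox HE1 and 704 and 456 in PlusDox HE1. In HE2 it read 739 and 674 FPKM without and 49.9 and 37.6 with doxycycline. In HP it read 367 and 581 FPKM without and 92.0 and 534 with doxycycline. The groups of HE2 did not overlap, but the 2 libraries of NoDox HE1 and of PlusDox HP differed more than 5-fold. Of its 5 lowest libraries 4 were Lars2-low, against 3 of the 7 others, and the lower library was the Lars2-low one in 3 of the 5 groups that hold both classes; the part of the class was not tested. Low values thus occurred with and without doxycycline.

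With doxycycline in HE2, Rps16 differed by −3.99 ± 0.78 (log2(FPKM + 1) scale, SE, as for all differences below, limma adjusted p = 0.0124). HE2 against HE1 in PlusDox gave −3.68 ± 0.78 (adjusted p = 0.0136, limma). In HE1 with doxycycline its range overlapped, and in HP as well. Neither of 2 differences in the effect of doxycycline that involve HE2 passed: HE2 minus HE1 was −5.28 ± 1.11 (limma adjusted p = 0.191) and HP minus HE2 2.94 ± 1.11 (0.626). The doxycycline call did not hold without NoDox HE2 replicate 1 (−3.93, limma adjusted p = 0.0837) or PlusDox HE2 replicate 2 (−3.80, 0.0766). That of HE2 against HE1 was lost without any 1 of its 4 libraries (−3.99 to −3.36, limma adjusted p = 0.0519 to 0.0731), and both were lost with no filter on low values (0.0862 and 0.0855).

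Rps16 has near-identical copies, and reads of its coding sequence cannot all be placed. A search of GENCODE M21 pseudogenes found 7 copies with at least 90% identity over at least 80% of its coding sequence. Rps16-ps2 on chromosome 5 (129128077 to 129128517) is identical over all 438 coding bases and is not among the names used here. Gm8623 on chromosome 8 (47632329 to 47632764) differs at 11 of 438 bases. The first 120 coding bases are shown to let the reader see how little separates the gene from the copy, with the 3 mismatches in capitals.
Rps16, coding bases 1 to 120: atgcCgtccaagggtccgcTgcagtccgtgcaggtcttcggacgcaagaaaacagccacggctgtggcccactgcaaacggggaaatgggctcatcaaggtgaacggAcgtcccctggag
Gm8623, the same stretch: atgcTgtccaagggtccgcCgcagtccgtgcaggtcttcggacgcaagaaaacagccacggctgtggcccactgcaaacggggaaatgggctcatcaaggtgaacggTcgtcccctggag
The 5 lowest libraries of Gm8623 were the 5 lowest of Rps16. It read 8.42 and 1.69 FPKM in NoDox HE1, 13.4 and 10.2 in PlusDox HE1, 14.6 and 13.3 in NoDox HE2, and 1.29 and 0.82 in PlusDox HE2. In NoDox HP it read 6.23 and 12.8 and in PlusDox HP 1.70 and 11.8 FPKM. Its difference with doxycycline in HE2 was −2.87 ± 0.65 (limma adjusted p = 0.0252), lost without any 1 of the 4 HE2 libraries (0.0546 to 0.139), with no filter (0.121) or when centred on the members (0.0638). Gm8623 was first noticed for its likeness to Rps16, and reads of the gene and the copy may be shared, so it is not a second measurement. Txn2, not one of the 7 copies, read 49.7 and 44.2 FPKM in NoDox HE2 and 13.6 and 9.23 in PlusDox HE2. It read 30.1 and 18.0 in NoDox HE1 and 41.6 and 27.9 in PlusDox HE1. In HP it read 36.2 and 41.6 without and 26.1 and 39.6 with doxycycline. Txn2 was singled out after its values were seen, and a link to Rps16 was not tested.

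**Figure D4:**
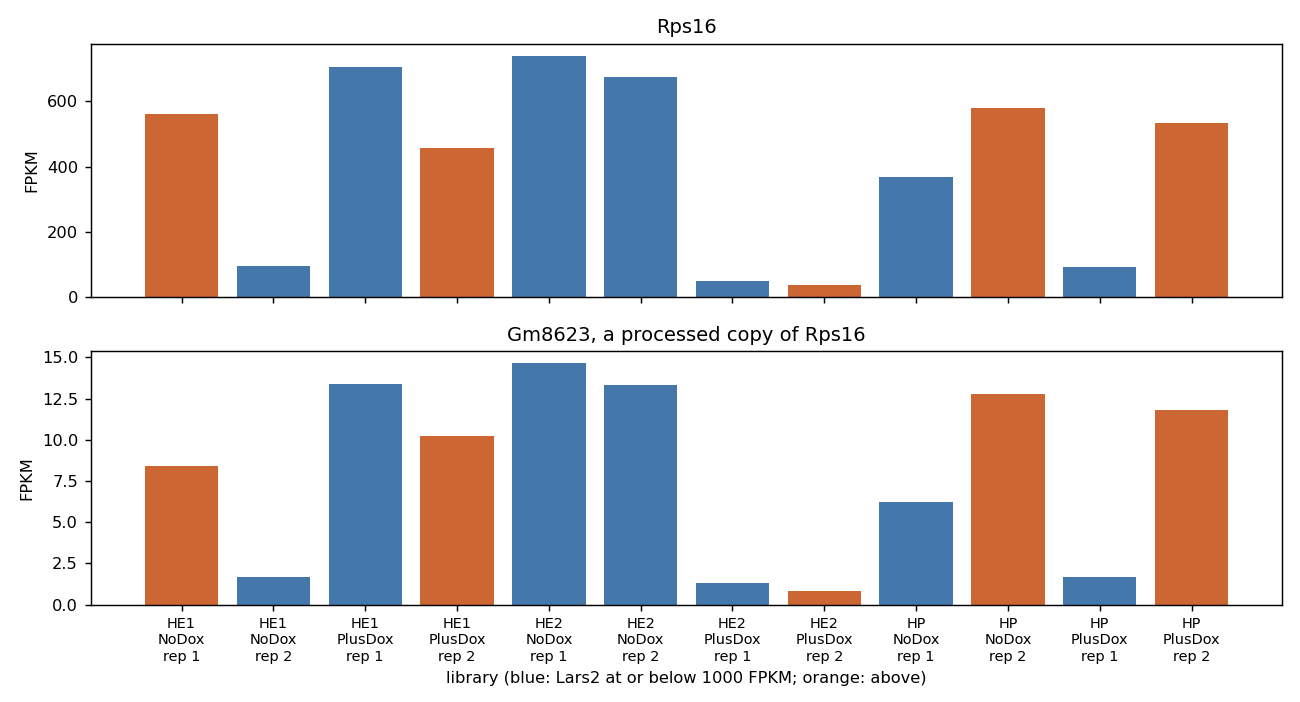
FPKM of Rps16 (top) and of its processed copy Gm8623 (bottom) in each of 12 libraries; bars are single libraries coloured by Lars2 class. Both genes are low in NoDox HE1 replicate 2, both PlusDox HE2 libraries and PlusDox HP replicate 1, and intermediate in NoDox HP replicate 1.

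For all members, the number of copies was set beside the spread and the level of a gene. In all, 949 copies were assigned to 72 of the 76 genes (median 9 a gene), and 58 copies had a row in the files. Across the 76 genes, the number of copies had a Spearman correlation of 0.03 with the spread of a gene around the family and of −0.05 with its mean FPKM. These are descriptions over genes that share libraries. How the identity of a copy goes with the spread was not tested, so they do not tell whether copies touch the other members. The thresholds of the search were chosen after a first search by whole mRNAs had missed the copies of Rps16.

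With doxycycline, no member other than Rps16 passed the test in any population. In HE1, 0 of 76 genes passed at an adjusted p below 0.05 (limma), where 1.37% of all tested genes did. An unadjusted p below 0.05 was found for 0 of 76, against 1277 of 13316 tested genes. The median difference was −0.15, against −0.07 over all tested genes. Of the 76 members 73 were lower and 3 higher, while 38% of all tested genes were higher. Leaving out 1 library gave a member median of −0.30 (PlusDox HE1 replicate 1) to −0.03 (PlusDox HE1 replicate 2). Within libraries of the same Lars2 class, with 1 library a group, the medians in HE1 were −0.09 (low) and −0.23 (high). Both libraries of PlusDox were below both of NoDox for 20 of 76 members, against 22% of all tested genes, and above for 0, against 13.6%. In bulk RNA, fewer cells of a type and less RNA per cell cannot be told apart.

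In HP, 0 of 76 genes passed by limma, against 0.834% of all genes. An unadjusted p below 0.05 was found for 0 of 76, against 1250 of 13316 tested genes. The median was −0.12, against 0.00 over all genes, with 72 of 76 lower and 4 higher, against 49.3% of all genes higher. It turned to 0.05 without NoDox HP replicate 1 and to 0.09 without PlusDox HP replicate 2, and was −0.27 and −0.33 without the other library of each group. Within the low and the high Lars2 class it was −0.08 and −0.16, with 1 library a group. PlusDox lay wholly above NoDox for 0 members (20.5% of all genes) and wholly below for 1 (13.2%).

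In HE2, Rps16 was the only member that passed, 1 of 76 lower, against 2.24% of all genes lower. The median was 0.05, against −0.05 over all genes, with 43 of 76 higher, against 45.1% of all genes. It turned to −0.12 without NoDox HE2 replicate 2 and to −0.16 without PlusDox HE2 replicate 1. Among Lars2-low libraries, 2 of NoDox and 1 of PlusDox, it was 0.19. PlusDox lay wholly above NoDox for 7 members (22.3% of all genes) and wholly below for 4 (28%). Rps29 (1550 and 1190 FPKM without, 980 and 807 with doxycycline) and Rps26 (1128 and 900 without, 833 and 551 with) did not overlap between groups. Their differences were −0.61 ± 0.24 (limma adjusted p = 0.151) and −0.57 ± 0.25 (0.207). They were named after their values were seen, and both passed limma under 4 of the 9 alternatives of scaling, filter, pseudocount or design. Relative to the family median and centred per gene, Rps29 was lowest in the same 5 libraries as Rps16, with and without doxycycline. It stood at −0.42 and −0.40 (log2) in PlusDox HE2 and at −0.39 in PlusDox HP replicate 1. In NoDox it stood at −0.23 in HE1 replicate 2 and at −0.19 in HP replicate 1. The other libraries ranged from −0.06 to 0.22. A link to Rps16 was not tested.

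No member passed the limma test of a difference between populations in the effect of doxycycline. The counts were 0 of 76 for HE2 minus HE1 (0.0451% of all genes), HP minus HE1 (0.0375%) and HP minus HE2 (0.015%). With so few calls over all genes, 0 calls say little. In the same order, 1, 0 and 1 members had an unadjusted p below 0.05, as did 892, 869 and 875 of 13316 tested genes. Where there was 1 such member, it was Rps16 (differences given above). For the 75 members other than Rps16, the 95% interval of the doxycycline effect lay within 1 log2 unit of 0 in 74 genes in HE1, 72 in HE2 and 74 in HP. Intervals of this width leave room for changes of under 2-fold.

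From HE1 to HE2, along the path of the cells, most members had a higher mean in HE2, but no member passed the main test as higher. In NoDox, all 76 had a higher mean, against 65.6% of all tested genes, with a median of 0.32 against 0.16. Leaving out 1 library gave a member median of 0.16 (NoDox HE2 replicate 1) to 0.49 (NoDox HE2 replicate 2). Both HE2 libraries were above both HE1 libraries for 56 of 76 members, against 45.6% of all genes, and below for 0, against 17.6%. None of the 76 passed limma (10.1% of all genes did), and 4 had an unadjusted p below 0.05, as did 3714 of 13316 tested genes. In PlusDox, 73 of 76 were higher, against 67.3% of all tested genes, with a median of 0.51 against 0.17. Leaving out 1 library gave 0.32 (PlusDox HE2 replicate 1) to 0.66 (PlusDox HE2 replicate 2). Both HE2 libraries were above both of HE1 for 66 of 76, against 37.9% of all genes, and below for 1, against 14.6%.

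In that PlusDox comparison, 28 of 76 had an unadjusted p below 0.05 (limma), as did 3321 of 13316 tested genes. Rps16 alone passed the main test, 1 of 76 lower against 2.89% of all genes. Of the members chosen by role, Rpl22 read 100 and 90.8 FPKM in HE1 and 154 and 134 in HE2 (0.59 ± 0.20, limma adjusted p = 0.0874), and passed limma under 5 of the 9 alternatives (0.00991 to 0.043). Rpl5 read 458 and 362 against 613 and 546 FPKM (0.51 ± 0.23, limma adjusted p = 0.194) and passed with a term for the Lars2 class (0.0262). Rps6 read 641 and 510 against 916 and 754 FPKM (0.54 ± 0.24, limma adjusted p = 0.196) and passed under 2 of 9 alternatives. Rpsa read 701 and 578 against 1059 and 798 FPKM (0.53 ± 0.25, limma adjusted p = 0.217) and passed under 1. Rpl11 overlapped, with 665 and 598 against 834 and 646 FPKM (0.22 ± 0.25, limma adjusted p = 0.603). Rps19 (0.51 ± 0.27), Rpl10a (0.52 ± 0.27), Rpl38 (0.50 ± 0.28), Rplp0 (0.38 ± 0.26), Rplp1 (0.47 ± 0.29), Rplp2 (0.47 ± 0.27) and Rpl41 (0.61 ± 0.32) did not overlap and did not pass, under the 9 alternatives either.

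The size of this step depends on the scaling. With quantile normalization the member median was 0.0463 in NoDox and 0.19 in PlusDox, and that of all tested genes 0.03 and 0.02, in place of 0.16 and 0.17. The members stayed above all genes in median in both under each scaling run. With a term for the Lars2 class 33 of 76 members passed as higher and 1 as lower in PlusDox, against 13% and 4.71% of all genes, in place of 5.7% and 2.89%. With a term for the replicate number (replicate block) 27 passed as higher and 1 as lower in PlusDox, against 12.7% and 5.47%. In NoDox 4 passed as higher and 0 as lower with the block, against 15.7% and 7.76%. Endothelial markers were lower and haematopoietic markers higher in sum in HE2 than in HE1 (values above), and their part was not tested.

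From HE2 to HP the median differences of the family were small and their sign was not stable. In NoDox the median was 0.05 against −0.06 over all genes, and 0 of 76 passed (16% of all genes did) or had an unadjusted p below 0.05 (limma). In PlusDox it was −0.08 against −0.01, and 0 of 76 passed (16.9% of all genes), with 1 at an unadjusted p below 0.05. Of 13316 tested genes, 3704 in NoDox and 3870 in PlusDox had an unadjusted p below 0.05. Wholly higher in HP were 2 members in NoDox (22.2% of all genes) and 3 in PlusDox (23.5%), and wholly lower 1 (33%) and 1 (27.7%). The NoDox median was −0.08 with quantile normalization. It was −0.11 without NoDox HE2 replicate 2 and −0.12 without NoDox HP replicate 1. The PlusDox median turned to 0.09 without PlusDox HE2 replicate 1 and to 0.15 without PlusDox HP replicate 2. Rpl14 differed by 0.47 ± 0.24 from HE2 to HP in NoDox (limma adjusted p = 0.227), and passed under 5 of 9 alternatives.

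**Figure D5:**
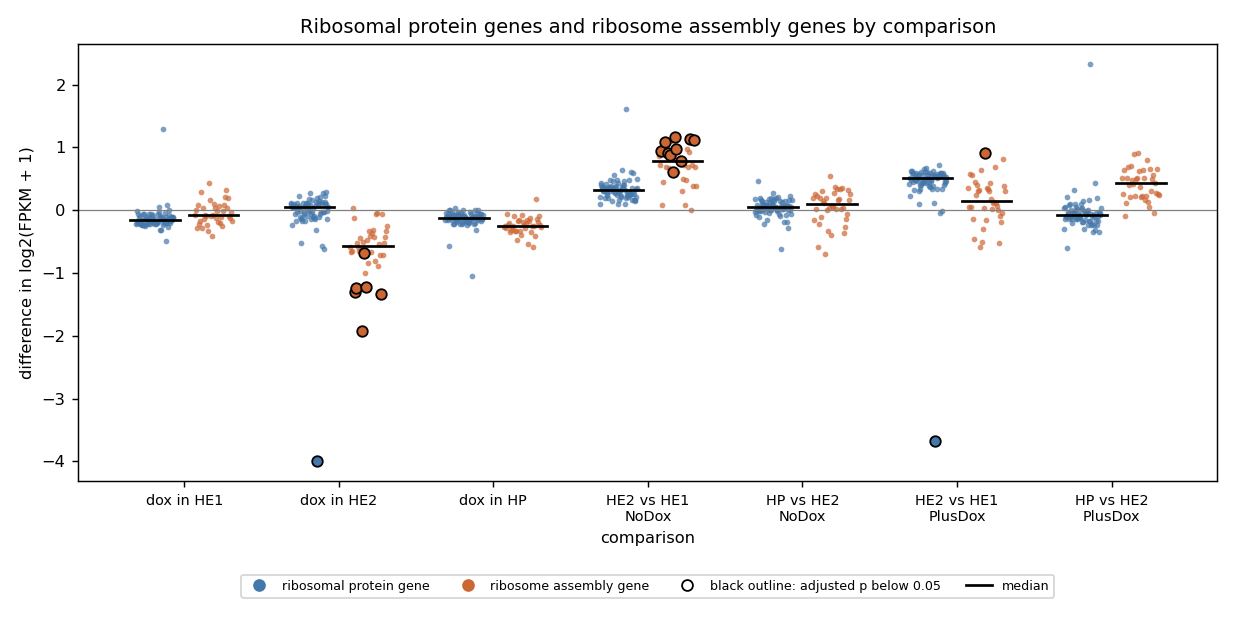
Difference in log2(FPKM + 1) of each ribosomal protein gene (blue) and each ribosome assembly gene (orange) in 7 comparisons; lines are medians and black outlines mark an adjusted p below 0.05 (limma). Rps16 is the only outlined blue point, while 6 assembly genes are outlined below 0 with doxycycline in HE2 and 10 above 0 from HE1 to HE2 in NoDox.

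Genes that build ribosomes held more calls than the ribosomal protein genes with doxycycline in HE2 and from HE1 to HE2 in NoDox. From HE1 to HE2 in PlusDox each set held 1 call, and elsewhere neither set held any. In that PlusDox step the order depended on the setting. With a term for the Lars2 class, 33 members and 3 assembly genes passed as higher, against 13% of all genes. As lower, 1 member and 1 assembly gene passed, against 4.71%. When centred on the members, 2 members and 10 assembly genes passed as lower, against 15.6% of all genes. As higher, 0 members and 1 assembly gene passed, against 2.16%. The centring put the median of all tested genes at −0.30. Of 38 tested assembly genes, 6 fell with doxycycline in HE2 and 0 rose, against 2.24% of all genes lower (limma), and the list's median was −0.56. Endothelial markers did not overlap in this comparison either: they summed to 544 and 857 FPKM without and 962 and 954 with doxycycline, and their part was not tested. Haematopoietic markers overlapped, with 304 and 205 against 286 and 174 FPKM. Ncl, which encodes nucleolin of the nucleolus, read 160 and 135 FPKM without and 52.8 and 27.5 with doxycycline (−1.92 ± 0.42, limma adjusted p = 0.0216). Rrs1, a factor for the 5S particle, read 29.7 and 20.4 against 12.2 and 6.83 (−1.33 ± 0.28, 0.0165, limma). Fbl, the methyltransferase of box C/D small nucleolar particles, fell by 1.31 ± 0.34 (limma adjusted p = 0.045), and Gar1, of the pseudouridylation particle, by 1.24 ± 0.29 (0.0287). Nolc1 and Nmd3 also fell. No assembly gene passed in this comparison without NoDox HE2 replicate 1 (Ncl −1.80, limma adjusted p = 0.1445) or without PlusDox HE2 replicate 2 (Ncl −1.46, 0.182), and 1 did with no filter on low values. The Fbl call was also lost without NoDox HE2 replicate 2 or any NoDox HE1 or NoDox HP library (0.0561 to 0.0627), and with a pseudocount of 0.1 (0.0573).

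Myc, a transcription factor known to drive ribosome production, fell in HE2 with doxycycline from 29.9 and 23.6 to 11.3 and 9.53 FPKM (−1.27 ± 0.22, limma adjusted p = 0.00636). The Myc call was lost without NoDox HE2 replicate 1 (0.0778) or PlusDox HE2 replicate 2 (0.0611). Hnrnpa1, an RNA-binding protein with a TOP mRNA, fell by 1.03 ± 0.27 (limma adjusted p = 0.0458), a call lost on leaving out any 1 library other than those of PlusDox HE1 and PlusDox HE2 replicate 1 (0.0534 to 0.362), and with a pseudocount of 0.1 (0.0561) or no filter (0.128). Neither in HE1 nor in HP did a gene of the assembly list pass with doxycycline (0 of 38 in each, against 1.37% and 0.834% of all genes). The list's medians were −0.08 and −0.25. No gene of the lists passed the test of a difference between populations in the effect of doxycycline, where 0.015% to 0.0451% of all genes did.

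From HE1 to HE2 in NoDox, 10 of 38 assembly genes rose and 0 fell, against 5.67% of all genes higher (limma), with a list median of 0.78. The largest were Nolc1 (1.16 ± 0.29), Rrs1 (1.13 ± 0.28), Wdr12 (1.12 ± 0.27) and Gar1 (1.08 ± 0.29). None of the 38 passed without NoDox HE1 replicate 1, NoDox HE1 replicate 2 or NoDox HE2 replicate 1 (Nolc1 1.35, 0.97 and 0.93, limma adjusted p = 0.0558, 0.2195 and 0.2395), and none of these 4 with no filter (0.0847 to 0.111). Gar1 was also lost with equal library sums (0.0507), the Lars2 class term (0.0529) or centring (0.0609), and without NoDox HP replicate 1 or 2. Mycn rose from 28.5 and 23.1 to 87.7 and 62.4 FPKM (1.49 ± 0.33, limma adjusted p = 0.0161) and Snhg3, a host gene of small nucleolar RNAs, by 1.18 ± 0.30 (0.0308). Both calls were lost without NoDox HE1 replicate 2 or NoDox HE2 replicate 1 (0.144 to 0.294) and with no filter (0.0741 and 0.104), and that of Snhg3 also with the Lars2 class term (0.0554) or centring (0.0718).

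In PlusDox, Nop10 was the only assembly gene that passed, 1 of 38 against 5.7% of all genes higher (0.92 ± 0.25, limma adjusted p = 0.0416). Mycn rose by 1.68 ± 0.33 (limma adjusted p = 0.00921), Naca, a chaperone of new proteins, by 0.79 ± 0.18 (0.0218), and Myc fell by 1.07 ± 0.22 (0.0115). The Naca call was lost without any 1 of the 4 libraries compared (0.0766 to 0.118), with equal library sums (0.0633) or centring (0.19), and that of Nop10 without 3 of them or any NoDox HE1 or NoDox HP library (0.0535 to 0.266), with no filter (0.111) or equal library sums (0.0532). That of Mycn was lost without PlusDox HE1 replicate 2 or PlusDox HE2 replicate 1 (0.0888 and 0.0862) or with no filter (0.0543). That of Myc was lost without either PlusDox HE1 library or PlusDox HE2 replicate 2 (0.0508 to 0.0724). From HE2 to HP, 0 of 38 assembly genes passed in NoDox (16% of all genes did) and 0 in PlusDox (16.9%), with medians of 0.09 and 0.43.

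The other lists held few calls. Of 10 Diamond-Blackfan genes, all members of the family, 0 passed in any comparison, as for the 4 X-linked members and the 11 genes of RNA polymerase I. The 4 genes of the p53 arm of the free 5S particle had 0 calls too. Over all tested genes the share called in a comparison was 0.015% to 16.9%, so 0 calls in lists this short say little. From HE2 to HP, Mxd4, an antagonist of MYC, fell in NoDox (−0.99 ± 0.22, limma adjusted p = 0.00748) and PlusDox (−0.86 ± 0.22, 0.0166), Mycn fell in NoDox (−1.06 ± 0.33, 0.049) and Myc rose in PlusDox (0.84 ± 0.22, 0.0206). Mxd4 was lost in NoDox without NoDox HE2 replicate 2 (0.0613) or NoDox HP replicate 2 (0.0929), and in PlusDox without either PlusDox HE2 library or PlusDox HP replicate 2 (0.0552 to 0.136). Mycn was lost without any 1 of the 6 NoDox libraries (0.0623 to 0.275), with a pseudocount of 0.1 (0.054), no filter (0.152) or the Lars2 class term (0.0659). Myc was lost without PlusDox HE2 replicate 2 (0.138) or PlusDox HP replicate 1 (0.164), and with no filter (0.0512).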

How the data were processed

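Gene expression was measured in 12 libraries, 6 groups of 2 biological replicates, with a stranded total RNA kit, per the labels. The submitters' processing notes name StringTie 1.3.3, HISAT2 2.1.0, Trimmomatic 0.32 and build mm10. They name no annotation and no strand setting. The deposited values have no header and were read as FPKM made by the authors with StringTie, from the tool named and the sums. Repeated names were added. Depth is unknown: ratios of low values between libraries, tried at 19 settings of ceiling and bin width, fitted 1 scale within 0.1 (log2) in only 9 to 27 of 66 library pairs, so no relative depth is used.

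Genes with FPKM of at least 1 in at least 2 libraries (13316) were tested with limma 3.58.1 in R 4.3.3 on log2(FPKM + 1), with 6 group means over 12 libraries, an intensity trend, 6 residual and 5.83 prior degrees of freedom, two-sided p and Benjamini-Hochberg adjustment over all tested genes, called below 0.05. P-values rest on the spread between 2 replicates pooled over groups. The fit was tested on simulated data in which each gene was drawn on its own. These data held no shift shared by the genes of a library, so they cannot show error rates under such shifts. Copies were found with BLAST+ 2.17.0 from GENCODE M21 coding sequences. Tables and plots used pandas 2.3.3, matplotlib 3.10.9, numpy 2.4.6 and scipy 1.17.1 under Python 3.11.15. Coordinates came from a RefSeq table for GRCm38, in which all 76 members were found.

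Members and lists were chosen with earlier results of these data known. Named were, per comparison, up to 8 called members by size; the 4 widest and 4 narrowest between replicates; the 3 highest and 3 lowest; 12 members by role; and up to 4 called genes of each list per comparison. Alternatives were a pseudocount of 0.1, no filter, 4 scalings, a replicate block, a term for the Lars2 class and leaving out each library; centring on the members and values within the Lars2 class were chosen after seeing the data.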

Additional observations from a re-analysis of the deposited data

How the results depend on the processing

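Only 2 replicates a group and an unknown depth limit what could be detected. The number of members called was 0 under every alternative for doxycycline in HE1 and HP and for the 3 differences in its effect. Shares of all tested genes called under the same alternative stand in brackets. With doxycycline in HE2 (1 called, 6.06%) it was 0 with no filter (1.82%) and 3 with quantile normalization (13.7%), with equal library sums computed without Lars2, Mir6236, LOC101056014 and the members (10.3%), with the replicate block (17.2%) and when centred on the members (8.12%); leaving out 1 library gave 0 to 1 (1.29% to 6.59%). From HE1 to HE2 in PlusDox (1 called, 8.59%) it was 0 with no filter (3.32%), 5 with quantile normalization (15.4%), 4 with median scaling (14.2%), 9 with the sum without features and members (11%), 28 with the replicate block (18.2%), 34 with the Lars2 class term (17.7%) and 2 when centred (17.8%), and 0 to 1 in leave-one-out (2.95% to 8.54%). In NoDox (0, 10.1%) it was 4 with the replicate block (23.5%) and 0 to 1 in leave-one-out (1.97% to 10.7%). From HE2 to HP in NoDox (0, 16%) it was 1 with quantile normalization (20.8%), median scaling (21.9%), the class term (18.8%) or centring (14.8%) and 2 with the sum without features and members (18.9%). In PlusDox (0, 16.9%) it was 2 with quantile normalization (25.5%) or centring (16.8%), 1 with the sum without features and members (21.8%), the block (25.4%) or the class term (24%), and 0 to 2 in leave-one-out (9.82% to 17.5%), where the median ran from −0.30 to 0.15.

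The member median from HE1 to HE2 was 0.0463 (NoDox) and 0.1852 (PlusDox) with quantile normalization and −0.0124 and 0.0319 when centred on the members, which sets it near 0 by construction. Assembly genes called with doxycycline in HE2 (6, all lower, against 2.24% of all genes lower) were 1 with no filter (0.539%), 13 with quantile normalization (6.63%), 11 with median scaling (5.41%), 18 with the sum without features and members (5.85%) or centring (5.35%), 20 with the block (9.38%), and 0 to 7 in leave-one-out (0.293% to 2.67%). From HE1 to HE2 in NoDox (10, all higher, against 5.67% of all genes higher) they were 1 with no filter (1.85%), 18 with quantile normalization (6.86%), 5 with equal library sums (3.88%), 20 with the sum without features and members (5.85%), 30 with the block (15.7%), and 0 to 14 in leave-one-out (1.43% to 5.8%). The difference of Rpl11 from HE1 to HE2 in PlusDox turned to −0.1301 with quantile normalization and −0.2565 when centred, that of Rplp0 to −0.0125 and −0.0996, and those of Rplp1 and Rplp2 to −0.0077 and −0.0016 when centred. The cause of these changes was not tested. The labels do not say whether a replicate number marks a shared culture, so pairing is unknown. Replicate differences correlated between groups by −0.1 to 0.526 and above 0.1 in 12 of 15 group pairs. Between PlusDox groups the correlations were 0.415 to 0.526, and between NoDox groups −0.008 to 0.322. The block changed the counts as given.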
